A study of Mus musculus with 18 samples.

Results

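The angiogenic growth factors described here are 10 genes taken by name: the VEGF family ligands *Vegfa*, *Vegfb*, *Vegfc* and *Pgf*, the angiopoietins *Angpt1* and *Angpt2*, the sphingosine 1-phosphate receptor *S1pr1*, the fibroblast growth factor *Fgf1* and the platelet-derived growth factor subunits *Pdgfa* and *Pdgfb*. They are 10 of 18193 genes with a probe set of a single symbol on the Affymetrix mouse array, and 19 of 45037 probe sets carry them. Of the 10 genes, 3 have 1 probe set, 5 have 2 and 2 have 3. The list is one of names, drawn up with earlier results of these data known, and no member was left out by a filter on low signals. Each gene is read from its brightest probe set on average, and its other probe sets stand beside it.

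Treatment of a mouse hepatoma line and a mutant derivative gave 6 groups of 3 arrays, 18 in all. The *c*35 groups were *c*35 cells given TCDD at 5 nM, BaP at 5 µM or DMSO as the vehicle for 8 hr. The wild-type groups were Hepa-1c1c7 cells given the same agents for the same time, where the labels of the TCDD arrays state no dose and the dose was taken from the methods. The *c*35 cells are a single mutant derivative of the wild-type line, in which the aryl hydrocarbon receptor (AHR) cannot bind DNA, so that other differences between the lines and this mutation cannot be told apart. Cells that received DMSO are called naive. The 3 arrays of a group are described as biological replicates.

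The AHR is a transcription factor that binds TCDD and BaP, moves to the nucleus, pairs with ARNT and binds DNA at a short core motif. ARNT is also the partner of the hypoxia-inducible factors, of which *Vegfa* is a well-known target. VEGF ligands act on receptor tyrosine kinases of endothelial cells, VEGFC mainly on those of lymphatic vessels. Angiopoietin 1 activates the endothelial receptor TIE2 and steadies vessels, while angiopoietin 2 mostly opposes it. Hepatoma cells are a source of such factors and not their usual target, and the endothelial and mural cells that respond to them were not part of the cultures.

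The sequences upstream of the members are shown first because the AHR core motif bears on genes that respond to its ligands. RefSeq promoter tables of build GRCm38.p6 held 8 windows for 5 of the 10 members, of which the 250 bases before the annotated start were read. The upstream sequences of *Angpt1*, *Angpt2*, *S1pr1*, *Fgf1* and *Pdgfb* were not read, so whether they hold either core is not known here. The AHR core was searched as GCGTG and the hypoxia response core as ACGTG, each on both strands, and no match of one overlapped a match of the other. GCGTG was found in 4 of the 8 windows, beside 28.2% of 32851 windows of the same length, and ACGTG in 1 of the 8, beside 16.6% of all windows. *Vegfc*, the member that fell with both ligands, had neither in its upstream window (chr8:54077282-54077531, plus strand), which is printed whole in lower case for that reason and has a GC content of 71.6%.
Vegfc: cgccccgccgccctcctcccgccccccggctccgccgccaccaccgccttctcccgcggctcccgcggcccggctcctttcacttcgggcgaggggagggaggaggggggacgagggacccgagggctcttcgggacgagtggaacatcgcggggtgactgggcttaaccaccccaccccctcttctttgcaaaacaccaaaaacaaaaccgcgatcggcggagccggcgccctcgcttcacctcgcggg

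The 5 matches of GCGTG lay in windows of *Vegfa*, *Vegfb*, *Pgf* and *Pdgfa*, and are given with their flanks on the strand of the gene, the core in capitals (CACGC is the same core read on the other strand). A match describes these letters only and says nothing of binding.
Vegfa, second start inside the gene (chr17:46025365-46025393, minus strand): aagccctggagtGCGTGcccacgtcagag
Vegfb, first match (chr19:6987872-6987900, minus strand): ggtccttcaggtCACGCatctcctcaccc
Vegfb, second match (chr19:6987716-6987744, minus strand): ccggtggggagcGCGTGtttaggtcacat
Pgf, upstream start (chr12:85177421-85177449, minus strand): gccctgcggggtCACGCgcactcaggtct
Pdgfa, upstream start (chr5:138995159-138995187, minus strand): gggagctgcagcCACGCtccgcggtcccc

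The match of ACGTG lay beside that of GCGTG at the second start of *Vegfa*, on the other strand, and the window at the upstream start of *Vegfa* held neither core.

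The signals checked the labels in wild-type cells and raised a point on *c*35 arrays. The AHR targets *Cyp1a1*, *Nqo1* and *Tiparp* rose with both ligands in wild-type cells, by 3.28, 1.42 and 2.44 on the log2 scale with TCDD and by 3.69, 2.10 and 2.61 with BaP. In *c*35 cells *Cyp1a1* stood at 8.32 on BaP replicate 3 and at 8.32 and 8.34 on DMSO replicates 1 and 2, against 4.87 to 6.23 on the other *c*35 arrays. *Tiparp* was also highest on those 3 arrays, at 10.42, 10.36 and 10.30, against 9.13 to 9.38 on the others. Differences of members were therefore also taken with these 3 arrays left out, which leaves 1 *c*35 DMSO array whose spread is taken from the other groups. The hepatocyte marker *Alb* was present in both lines, and 7 of 8 endothelial markers lay below the median probe set in every group. The 3′ signal of *Actb* minus its 5′ signal, read from control probe sets as a sign of RNA breakdown, was 0.30 to 0.53 on the *c*35 arrays and 0.73 to 1.38 on the wild-type arrays.

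**Figure D1:**
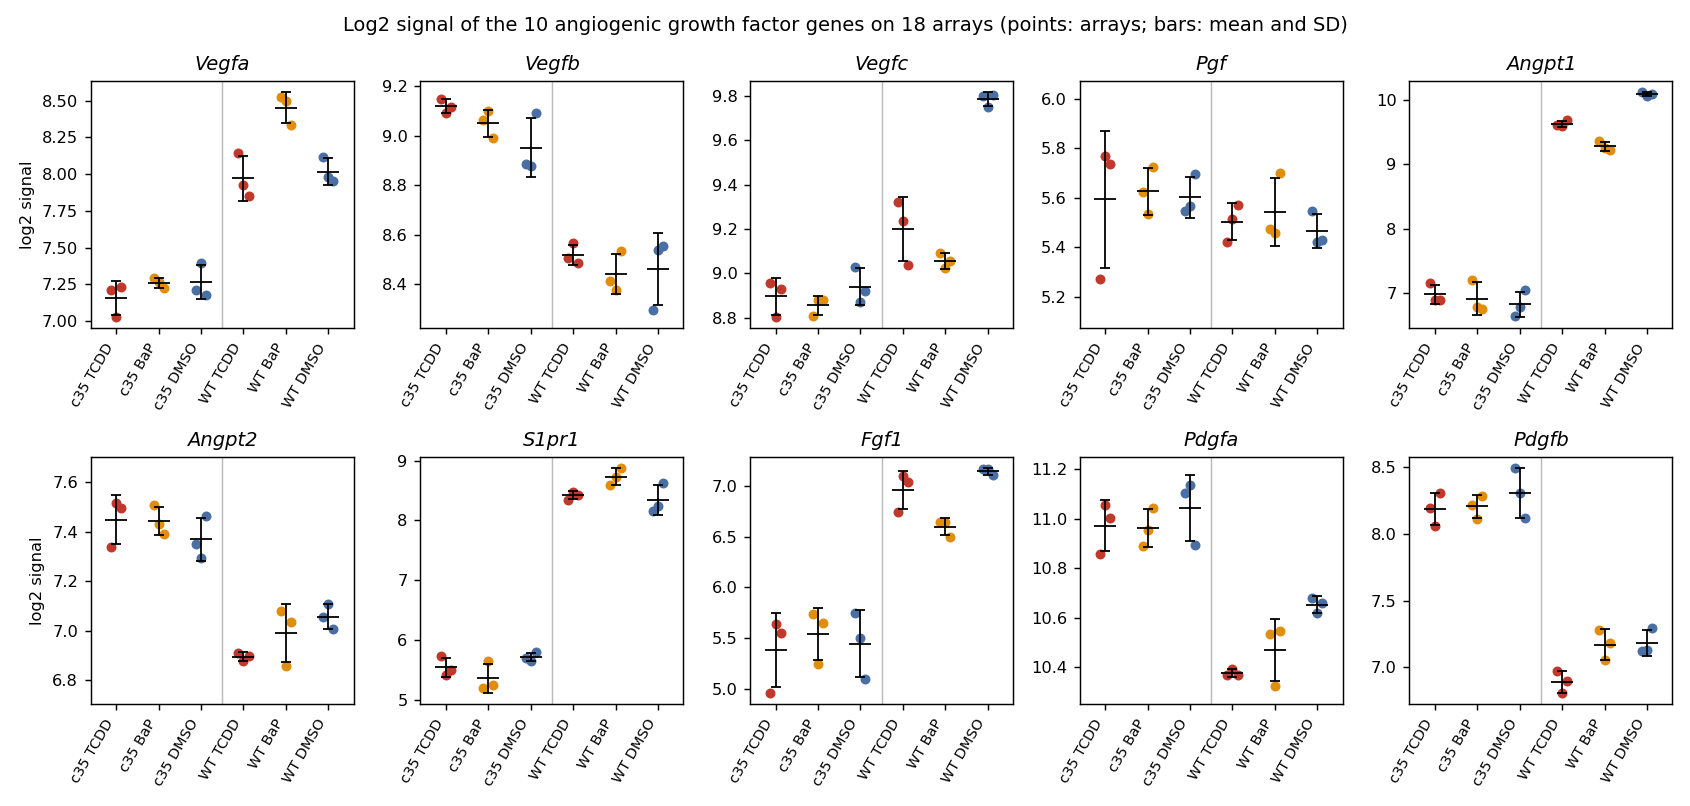
Log2 signal (y axis) of each of the 10 genes on the 18 arrays in the 6 groups (x axis), with a point for each array and a bar for the mean ± SD of 3 arrays. *Vegfc* and *Angpt1* lie lower with TCDD and with BaP than with DMSO in wild-type cells, and *Angpt1*, *S1pr1* and *Fgf1* lie lower on all *c*35 arrays than on any wild-type array.

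The first comparison asked which factors responded to the ligands in wild-type cells. With TCDD 1 of the 10 members fell, *Vegfc*, and none rose. With BaP 2 fell, *Vegfc* and *Angpt1*, and none rose. A member was called at an adjusted p below 0.05 (limma, Benjamini-Hochberg over all probe sets) and a change above 1.5-fold. Over all genes 0.0385% were called lower and 0.341% higher with TCDD, and 0.434% lower and 0.885% higher with BaP. The median change of the members was -0.17 with TCDD and -0.04 with BaP on the log2 scale, beside 0.01 and 0.00 over all genes. Both comparisons share the same DMSO arrays.

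*Vegfc*, the lymphatic growth factor, had log2 signals of 9.32, 9.24 and 9.04 with TCDD and of 9.09, 9.02 and 9.05 with BaP in wild-type cells, against 9.80, 9.75 and 9.81 with DMSO. No array of either ligand reached the lowest DMSO array, and TCDD replicate 3 lay among the BaP arrays. The fall with TCDD was -0.59 (SE 0.07, 95% interval -0.74 to -0.44, adjusted p = 0.000161 in limma), which lies just past the minimum change. The fall with BaP was -0.73 (SE 0.07, 95% interval -0.88 to -0.58, adjusted p = 2.84e-06), or 1.66-fold.

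The other probe sets of *Vegfc* moved the same way. Probe set 1419417_at had 7.23, 7.28 and 7.06 with TCDD and 7.18, 6.97 and 7.02 with BaP, against 7.96, 7.74 and 7.82 with DMSO. It was called with both ligands, at -0.65 with TCDD and -0.78 with BaP (adjusted p = 0.00131 and 3.75e-05 in limma). Probe set 1439766_x_at gave -0.41 with TCDD (adjusted p = 0.162) and -0.56 with BaP (adjusted p = 0.00928), both below 1.5-fold, and its DMSO replicate 1 at 7.76 lay below TCDD replicate 1 at 7.78. The TCDD call of the gene therefore rested on its size: it was lost when all 3 probe sets were averaged (-0.55), with the *Actb* difference as a covariate (-0.58), and without wild-type TCDD replicate 3, DMSO replicate 1 or DMSO replicate 3.

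*Angpt1*, the ligand that activates TIE2, had 9.61, 9.59 and 9.68 with TCDD and 9.36, 9.25 and 9.23 with BaP in wild-type cells, against 10.11, 10.06 and 10.09 with DMSO. The 3 groups did not overlap, with the BaP arrays lowest and the TCDD arrays between. The fall with BaP was -0.81 (SE 0.11, 95% interval -1.04 to -0.58, adjusted p = 0.000101 in limma), or 1.75-fold. With TCDD the difference was -0.46 (SE 0.11, adjusted p = 0.061) and was not called, and TCDD minus BaP was 0.35 (adjusted p = 0.133). Its second probe set, 1421441_at, had a lower signal and differences of -0.47 with TCDD (adjusted p = 0.332) and -0.68 with BaP (adjusted p = 0.0531).

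*Vegfa*, the main endothelial growth factor, had 8.14, 7.92 and 7.85 with TCDD and 8.53, 8.50 and 8.34 with BaP in wild-type cells, against 8.12, 7.98 and 7.95 with DMSO. The BaP arrays lay above all TCDD and DMSO arrays, while the TCDD and DMSO arrays overlapped. The difference from DMSO with BaP was 0.44 (SE 0.09, adjusted p = 0.00536 in limma) and TCDD minus BaP was -0.48 (SE 0.09, adjusted p = 0.00951), and both passed the adjusted p and stayed below 1.5-fold. Its probe set 1451959_a_at gave 0.35 with BaP (adjusted p = 0.159) and -0.11 for TCDD minus BaP (adjusted p = 0.803), with overlapping groups.

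*Fgf1*, a mitogen of many cell types that is released without a signal peptide, had 6.75, 7.10 and 7.04 with TCDD and 6.64, 6.65 and 6.50 with BaP, against 7.16, 7.16 and 7.11 with DMSO. The BaP difference was -0.55 (SE 0.17, adjusted p = 0.0708), and the other probe sets gave -0.33 and -0.26. *S1pr1* had 8.34, 8.48 and 8.43 with TCDD and 8.59, 8.72 and 8.88 with BaP, against 8.15, 8.24 and 8.63 with DMSO, where BaP replicate 1 lay below DMSO replicate 3, and the BaP difference was 0.39 (adjusted p = 0.0936).

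The PDGF subunits gave small values. *Pdgfa* had 10.37, 10.39 and 10.37 with TCDD and 10.53, 10.32 and 10.55 with BaP, against 10.68, 10.62 and 10.66 with DMSO, which is -0.28 with TCDD (adjusted p = 0.109) and -0.18 with BaP (adjusted p = 0.205). *Pdgfb* had 6.97, 6.81 and 6.90 with TCDD, against 7.12, 7.13 and 7.30 with DMSO, a difference of -0.29 (adjusted p = 0.203). Its second probe set, 1450413_at, gave 0.01 with TCDD. For *Vegfb*, *Pgf* and *Angpt2* the differences with either ligand lay between -0.16 and 0.08, and the widest 95% intervals among them ran from -0.21 to 0.28 with TCDD and from -0.17 to 0.32 with BaP, both for *Pgf*.

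TCDD and BaP were also set against each other in wild-type cells. None of the 10 members was called, beside 0.258% of all genes in either direction, and 5 had an unadjusted p below 0.05 (limma), beside 15.9% of all genes. By the same count 4 members had an unadjusted p below 0.05 with TCDD against DMSO, beside 14.3% of all genes, and 6 with BaP, beside 19.2%.

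**Figure D2:**
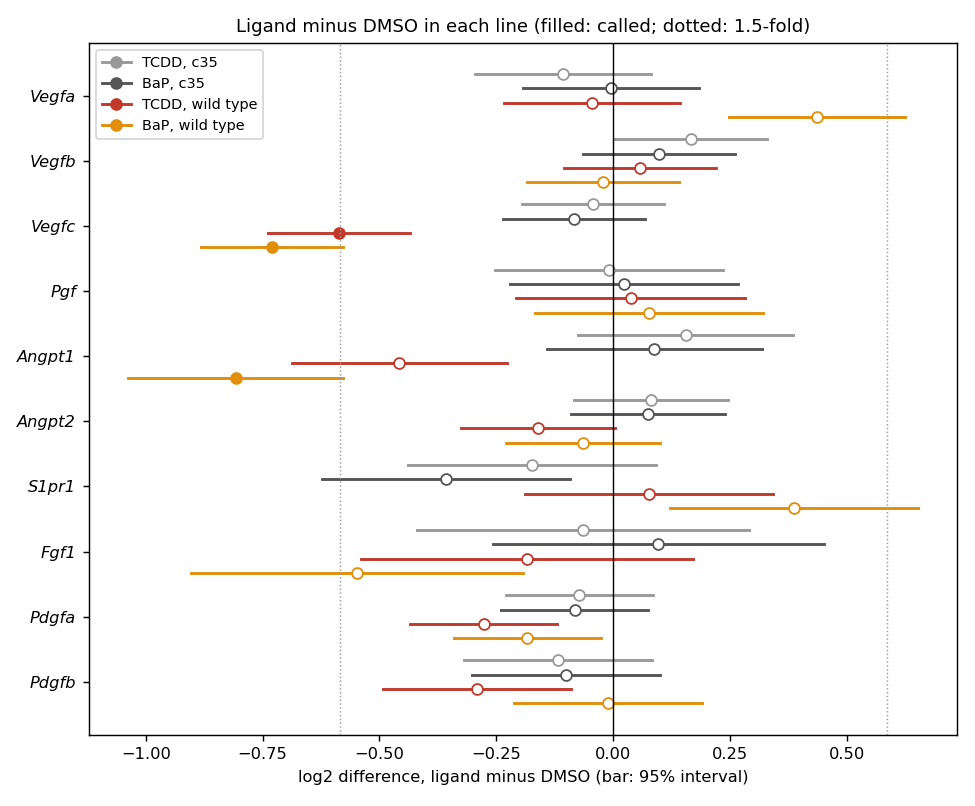
Log2 difference from DMSO (x axis) of each gene for the ligands TCDD and BaP, in *c*35 and in wild-type cells, where bars are 95% intervals, filled points were called and dotted lines mark 1.5-fold. The filled points are *Vegfc* with TCDD and BaP (-0.59 and -0.73) and *Angpt1* with BaP (-0.81), all in wild-type cells.

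In *c*35 cells no member was called with either ligand. The criterion there was the laxer one of an adjusted p of 0.1 and no minimum size, and 0 of the 10 members were called with TCDD and 0 with BaP, beside 0% of all genes in either comparison by limma. At an unadjusted p below 0.05 there was 1 member with TCDD (*Vegfb*, 0.17), beside 5.16% of all genes, and 1 with BaP (*S1pr1*, -0.36), beside 3.53%. *Vegfc* had 8.96, 8.80 and 8.93 with TCDD and 8.81, 8.88 and 8.88 with BaP in *c*35 cells, against 9.03, 8.87 and 8.92 with DMSO. These groups overlapped, and the differences were -0.04 (95% interval -0.19 to 0.11) with TCDD and -0.08 (95% interval -0.24 to 0.07) with BaP. *Angpt1* had 7.15, 6.90 and 6.90 with TCDD and 7.21, 6.78 and 6.75 with BaP, against 6.65, 6.78 and 7.05 with DMSO, and the groups overlapped as well.

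Whether a response differed between the lines was tested as the response in *c*35 cells minus that in wild-type cells. For BaP 2 members were called higher, *Vegfc* at 0.65 (SE 0.10, adjusted p = 0.00153 in limma) and *Angpt1* at 0.90 (SE 0.16, adjusted p = 0.00304), beside 0.330% of all genes. Lower, 1 member was called, *S1pr1* at -0.74 (SE 0.18, adjusted p = 0.0371), beside 1.01% of all genes. *S1pr1* had BaP minus DMSO values of -0.36 in *c*35 cells and 0.39 in wild-type cells, neither of which passed on its own. The *c*35 value comes from signals near the median of all probe sets, where a low level and a lack of expression cannot be told apart. No other probe set of *S1pr1* stands beside it. For TCDD 0 members were called, beside 0.280% of all genes in either direction, and 3 had an unadjusted p below 0.05, beside 7.90% of all genes. *Vegfc* differed by 0.54 (SE 0.10, adjusted p = 0.0246), below 1.5-fold, and *Angpt1* by 0.61 (adjusted p = 0.165). The other probe sets of *Vegfc* gave 0.84 (adjusted p = 0.00187) and 0.37 (adjusted p = 0.394) for BaP, and that of *Angpt1* 0.65 (adjusted p = 0.34).

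The *c*35 arrays with high *Cyp1a1* enter these tests. With all arrays the BaP differences were 0.65 for *Vegfc*, 0.90 for *Angpt1* and -0.74 for *S1pr1*. Without *c*35 DMSO replicates 1 and 2 and BaP replicate 3 they were 0.65, 0.76 and -0.77. That fit keeps 1 *c*35 DMSO array, so it cannot tell whether the calls hold. The ligand differences of *Vegfc* and *Angpt1* in wild-type cells use no *c*35 array. Leaving *c*35 arrays out could move only their pooled spread, so it does not test them. Leaving out single arrays cost *S1pr1* its call in 11 fits.

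The second comparison set the lines against each other with the same agent. Of the 10 members 5 were called with all 3 agents, 4 of them lower in *c*35 cells (*Angpt1*, *S1pr1*, *Fgf1* and *Vegfa*) and 1 higher (*Pdgfb*), beside 5.82% of all genes called lower and 4.67% called higher with all 3 agents. With TCDD 3 members were called higher and 4 lower, beside 6.32% and 8.65% of all genes. With BaP 2 were higher and 4 lower, beside 6.83% and 8.98%. With DMSO 1 was higher and 5 lower, beside 6.52% and 7.52%. Without the 3 *c*35 arrays of high *Cyp1a1* the *Vegfb* difference with DMSO was 0.63, against 0.49 with all arrays. That fit keeps 1 *c*35 DMSO array, so it cannot tell which members would be called. The median difference of the members with DMSO was -0.31, beside 0.03 over all genes. The *Actb* difference moved with the line, and its part in these differences was not tested beyond the values with it as a covariate. In bulk RNA, fewer cells that express a gene and less RNA per cell cannot be told apart.

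**Figure D3:**
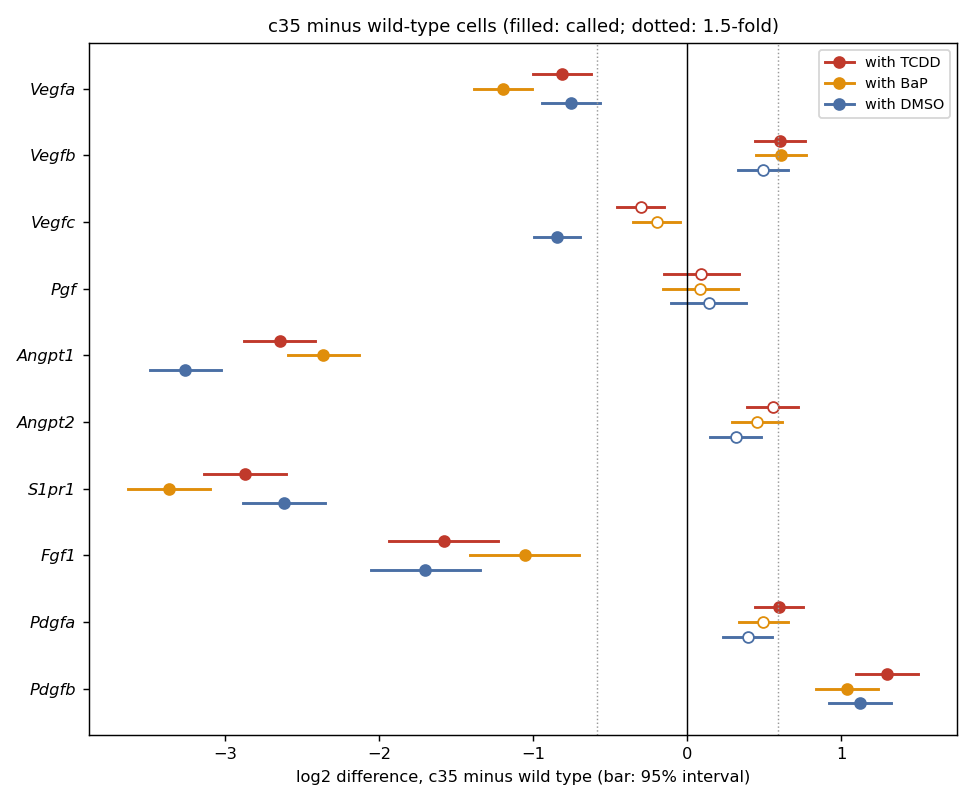
Log2 difference, *c*35 minus wild-type cells (x axis), of each gene with TCDD, BaP and DMSO, where bars are 95% intervals, filled points were called and dotted lines mark 1.5-fold. *Angpt1* and *S1pr1* lie farthest below 0 (-2.36 to -3.36) and *Pdgfb* farthest above (1.03 to 1.30).

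Among the VEGF ligands, *Vegfa* had 7.21, 7.40 and 7.18 in naive *c*35 cells, against 8.12, 7.98 and 7.95 in naive wild-type cells. Over all agents the *c*35 arrays ran from 7.03 to 7.40 and the wild-type arrays from 7.85 to 8.53, with no overlap. The difference was -0.82 with TCDD, -1.19 with BaP and -0.75 with DMSO (adjusted p = 3.01e-07, 1.32e-09 and 1e-06 in limma). The second probe set of *Vegfa*, 1451959_a_at, did not follow: its difference was 0.20 with TCDD, -0.09 with BaP and 0.40 with DMSO (adjusted p = 0.271, 0.648 and 0.0233 in limma). Its DMSO value passed the adjusted p in the opposite direction and stayed below 1.5-fold. With both probe sets averaged the *Vegfa* call was lost with TCDD and with DMSO, and with the *Actb* difference as a covariate the values were -0.56 with TCDD and -0.51 with DMSO, both below 1.5-fold, and -0.95 with BaP, which was called.

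*Vegfb*, which supports fatty acid uptake and survival more than sprouting, ran from 8.88 to 9.15 on the 9 *c*35 arrays and from 8.29 to 8.57 on the 9 wild-type arrays. The differences were 0.60 with TCDD, 0.61 with BaP and 0.49 with DMSO (adjusted p = 2.62e-06, 2e-06 and 3.37e-05 in limma), of which only that with DMSO stayed below 1.5-fold. The first 2 lie close to that minimum and fell below it with the *Actb* covariate, at 0.45 and 0.47.

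*Vegfc* had 9.03, 8.87 and 8.92 in naive *c*35 cells, against 9.80, 9.75 and 9.81 in naive wild-type cells, a difference of -0.85 (SE 0.07, adjusted p = 9.69e-09 in limma). Its 3 probe sets gave -0.85, -0.79 and -0.87, and all 3 were called. With the ligands the lines lay closer, at -0.30 with TCDD and -0.20 with BaP, both below 1.5-fold. Probe set 1439766_x_at gave -0.40 with TCDD and -0.42 with BaP, and 1419417_at gave -0.22 and -0.03. The order of the *Vegfc* means was DMSO in wild-type cells (9.79), then TCDD (9.20) and BaP (9.06) in wild-type cells, then DMSO (8.94), TCDD (8.90) and BaP (8.86) in *c*35 cells. Between neighbours in that order the highest group stood apart from the next, while TCDD and BaP in wild-type cells overlapped, as did BaP in wild-type cells and DMSO in *c*35 cells by 1 array each and the 3 *c*35 groups.

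*Pgf*, the placental ligand of VEGF receptor 1, ran from 5.27 to 5.77 on the *c*35 arrays and from 5.42 to 5.70 on the wild-type arrays. The lines overlapped with each agent, and the differences were 0.09, 0.08 and 0.14 with TCDD, BaP and DMSO, with 95% intervals that reached at most 0.38. The signal lay near the median of all probe sets, so that a low level and a lack of expression cannot be told apart.

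The angiopoietins parted. *Angpt1* had 6.65, 6.78 and 7.05 in naive *c*35 cells, against 10.11, 10.06 and 10.09 in naive wild-type cells, and the lines stood apart with every agent. The differences were -2.65 with TCDD, -2.36 with BaP and -3.26 with DMSO (adjusted p = 1.73e-13, 9.65e-13 and 7.21e-15 in limma), or 6.26-fold, 5.14-fold and 9.57-fold lower. Its probe set 1421441_at gave smaller differences of -0.60, -0.47 and -1.12 at a signal of 4.84 to 5.32 on the *c*35 arrays and 5.36 to 6.56 on the wild-type arrays. *Angpt2* ran from 7.29 to 7.52 on the *c*35 arrays and from 6.86 to 7.11 on the wild-type arrays. It differed by 0.55 with TCDD, 0.45 with BaP and 0.31 with DMSO (adjusted p = 8.73e-06, 9.43e-05 and 0.00352), each below 1.5-fold, and its second probe set, 1459636_at, overlapped between the lines at 4.07 to 4.41.

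*S1pr1*, a receptor of sphingosine 1-phosphate that steadies endothelial junctions and guides lymphocytes, had 5.71, 5.66 and 5.80 in naive *c*35 cells, against 8.15, 8.24 and 8.63 in naive wild-type cells. Over all agents it ran from 5.19 to 5.80 on the *c*35 arrays, against 8.15 to 8.88 on the wild-type arrays. The differences were -2.87 with TCDD, -3.36 with BaP and -2.62 with DMSO (adjusted p = 4.79e-13, 4.13e-14 and 2.1e-12 in limma), or 7.31-fold, 10.3-fold and 6.14-fold lower as measured. The signal in *c*35 cells lay near the median of all probe sets, as for *Pgf*, so that a low level and a lack of expression cannot be told apart there and these folds depend on the array's lower range.

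*Fgf1* had 5.75, 5.50 and 5.09 in naive *c*35 cells, against 7.16, 7.16 and 7.11 in naive wild-type cells. The differences were -1.58 with TCDD, -1.05 with BaP and -1.70 with DMSO (adjusted p = 2.04e-07, 3.71e-05 and 8.34e-08 in limma). Its probe sets 1423136_at and 1441042_at both gave -2.14 with DMSO, and no *c*35 array reached a wild-type array in any of the 3 probe sets. All 3 group means of each probe set in *c*35 cells lay below the median of all probe sets, so the same limit holds for the size of these differences.

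Of the PDGF subunits, *Pdgfb* was higher in *c*35 cells with each agent and *Pdgfa* was called with TCDD only. *Pdgfb* had 8.49, 8.31 and 8.12 in naive *c*35 cells, against 7.12, 7.13 and 7.30 in naive wild-type cells. The differences were 1.30 with TCDD, 1.03 with BaP and 1.12 with DMSO (adjusted p = 1.06e-09, 2.67e-08 and 9.31e-09 in limma), and the second probe set gave 0.97 with BaP and 1.09 with DMSO and was called with all 3 agents. *Pdgfa* ran from 10.86 to 11.14 on the *c*35 arrays and from 10.32 to 10.68 on the wild-type arrays, with differences of 0.60 with TCDD, 0.49 with BaP and 0.39 with DMSO (adjusted p = 1.91e-06, 2.02e-05 and 0.000292), of which only that with TCDD was called. Its probe set 1449187_at showed no such difference, at 0.07, -0.15 and -0.07, and with both averaged the TCDD call was lost.

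**Figure D4:**
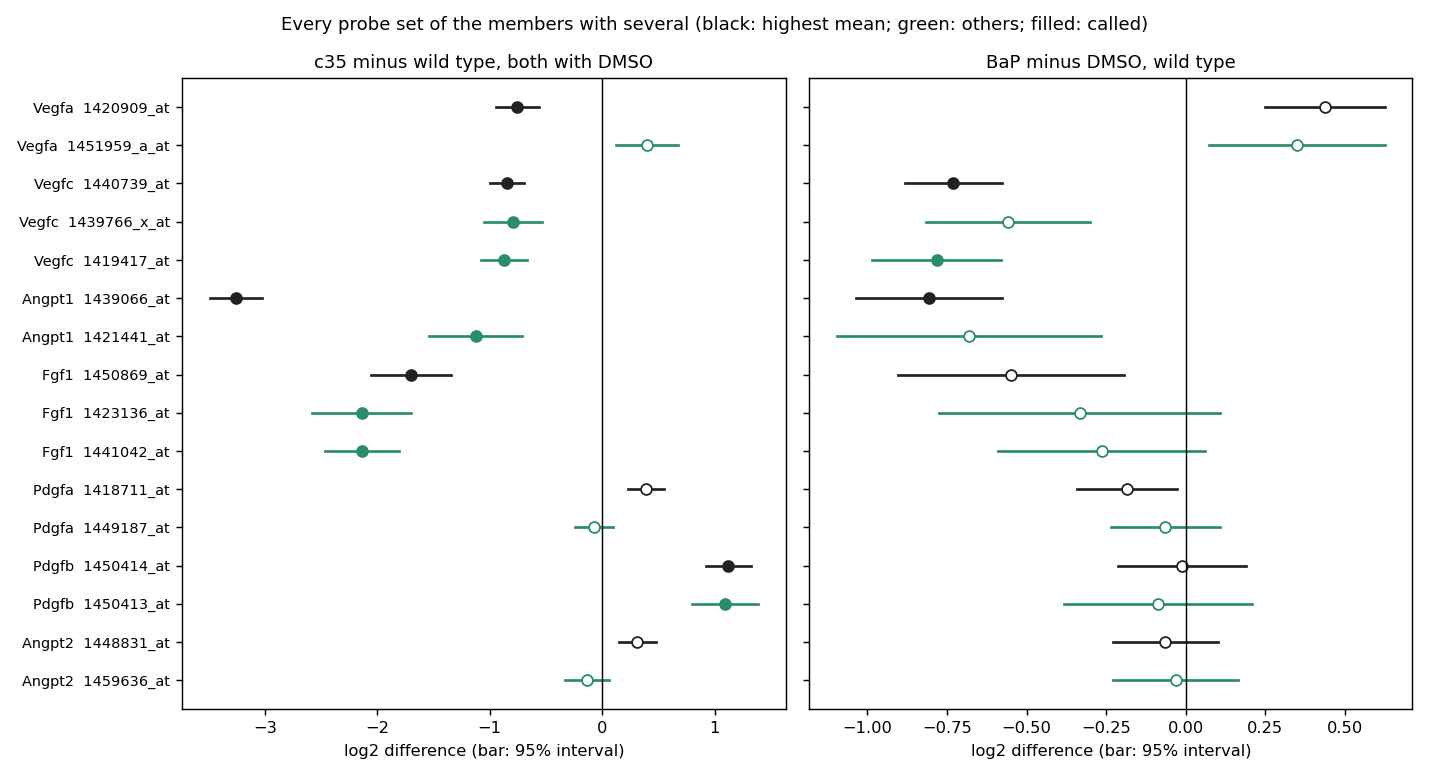
Log2 difference (x axis) of every probe set of the 7 members with several, *c*35 minus wild-type cells with DMSO on the left and BaP minus DMSO in wild-type cells on the right, where bars are 95% intervals, black marks the probe set with the highest mean and filled points were called. The probe sets of *Vegfc*, *Fgf1* and *Pdgfb* lie on the same side of 0 in the left panel, while those of *Vegfa* lie at -0.75 and 0.40 and those of *Pdgfa* at 0.39 and -0.07.

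The other genes of these pathways were read from lists written with earlier results known, and their counts are descriptions. The VEGF receptors and coreceptors had 0 of 5 genes called in any comparison: *Kdr*, *Flt1* and *Flt4*, which encode the 3 receptors, had log2 signals between 5.89 and 6.81 on all arrays, and *Nrp2*, the coreceptor for VEGFC, lay between 10.69 and 11.21. Of 4 angiopoietin pathway genes 1 was called, with each agent: *Ptprb*, the endothelial phosphatase that acts on TIE2. It differed by -1.15 with TCDD, -0.86 with BaP and -0.79 with DMSO between *c*35 and wild-type cells. Its signal in *c*35 cells lay below the median of all probe sets, which limits the size of these differences.

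The PDGF receptors lay lower in *c*35 cells, where *Pdgfb* lay higher. Of the 4 other PDGF genes 3 were lower and 0 higher in *c*35 cells with each agent. *Pdgfra* differed by -1.59, *Pdgfrb*, the receptor of PDGF-BB, by -1.20 and *Pdgfc* by -1.18 between naive *c*35 and naive wild-type cells, at adjusted p of 6.83e-08, 4.41e-10 and 6.24e-10 (limma). *Pdgfrb* ran from 9.38 to 9.71 on the *c*35 arrays and from 10.31 to 10.78 on the wild-type arrays. *Pdgfra* lay below the median of all probe sets in every group of both lines, which limits the size of its difference. Of the 14 other FGF genes 2 were higher and 0 lower in naive *c*35 cells, the decoy receptor *Fgfrl1* (0.88) and the FGF carrier *Fgfbp1* (0.76). None of the 9 other sphingosine 1-phosphate genes was called in any comparison, and *S1pr2*, a receptor that opposes *S1pr1* in migration, differed by 0.39 between the naive lines, below 1.5-fold.

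Of 10 proteases and binding proteins 1 was called, the membrane protease *Mmp14*, higher by 0.76 in naive *c*35 cells. Of 11 measured angiogenesis inhibitors 1 was higher and 3 lower in naive *c*35 cells: *Timp3*, which blocks VEGF from its receptor, differed by 0.87, the receptor kinase inhibitor *Spry1* by -1.96, the endostatin precursor *Col18a1* by -1.12 and the thrombospondin *Thbs1* by -0.82. With BaP in wild-type cells 1 inhibitor rose, the chemokine *Cxcl10*, by 0.71 (adjusted p = 0.00432 in limma).

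Oxygen sensing genes were read because ARNT serves both pathways. Of 10 such genes 1 was higher and 3 lower in naive *c*35 cells, the prolyl hydroxylase *Egln3* at 0.86, and *Epas1*, *Arnt* and *Hif1a* at -1.62, -0.74 and -0.70. With the ligands in wild-type cells none of the 10 was called. Of 12 measured hypoxia-inducible genes other than *Vegfa*, 2 rose and 0 fell with TCDD in wild-type cells, *Pfkfb3* (0.75) and *Ndrg1* (0.66), and 2 rose and 1 fell with BaP, *Ndrg1* (0.99), *Pfkfb3* (0.70) and *Bnip3* (-0.61).

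Markers of other cell types were read beside the line differences. None of the 8 endothelial markers was called between the lines, and *Pecam1*, *Cdh5* and *Tek* lay between 2.88 and 4.45 on all arrays. Of 6 fibroblast and mural markers 2 were higher and 1 lower in naive *c*35 cells, *Acta2* (2.15), *Col3a1* (1.29) and *Pdgfrb* (-1.20). Of 6 measured hepatocyte markers 1 was lower, *Alb* (-2.46), and of 4 leukocyte markers 1 was higher, *Cd68* (1.39). The log2 of the summed signal of each marker list ran, on *c*35 and wild-type arrays with DMSO, from 7.48 to 7.56 and 7.51 to 7.57 for endothelial, 13.36 to 13.53 and 12.67 to 12.87 for fibroblast and mural, 12.65 to 12.69 and 14.02 to 14.18 for hepatocyte and 8.84 to 8.87 and 7.53 to 7.80 for leukocyte markers. The part of these changes in the differences of the members was not tested.

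Genes with a pattern like those of the 2 members that fell in wild-type cells were found by Pearson correlation among 9095 genes above the median signal, as a description. For *Vegfc* they were *Get1*, *Fam20c* and *Rdh10* over the 9 wild-type arrays (r = 0.987, 0.981 and 0.978) and *Kcnk5*, *E2f8* and *Bend3* over all 18 arrays (r = 0.950, 0.949 and 0.940). For *Angpt1* they were *Rasgef1b*, *Stk17b* and *Znhit6* over the wild-type arrays (r = 0.985, 0.983 and 0.981) and *Tceal8*, *Wnt6* and *Fzd1* over all arrays (r = 0.994, 0.993 and 0.993). The arrays fall into treatment groups and lines that all these genes share.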

How the data were processed

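Total RNA of 18 cultures was measured on Affymetrix mouse expression arrays, in 6 groups of 3 taken from the sample labels. The authors deposited 1 table of log2 signals, made by robust multiarray averaging (RMA, version not given in the sources used here), which removes background, brings arrays to a common distribution and gives 1 value per probe set. The log2 values were used as deposited. The table held 45101 probe sets, from which 64 control probe sets were dropped. Among the 45037 tested, 34945 had 1 gene symbol in the platform annotation, 932 had several and 9160 had none, and those with several named no gene.

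Group means over the 18 arrays were fitted in limma 3.58.1 (R 4.3.3), with moderated variances that follow the signal. In each of 10 comparisons the Benjamini-Hochberg adjustment ran over all 45037 probe sets. Calls needed an adjusted p under 0.05 and more than 1.5-fold, or 0.1 and no minimum size for ligands in *c*35 cells. Intervals are 95% intervals of the fit. The fit was tested on simulated data. No arrays held identical values, and precision is limited by how many arrays each group has.

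The members and the 14 other lists were chosen with earlier results of these data known. The genes named are all members, up to 3 called genes of largest change per list and comparison, *Cyp1a1*, *Nqo1* and *Tiparp* as a label check, and the 3 genes most correlated with each member called in wild-type cells. Receptors and endothelial markers that were not called, and *Thbs1* and *Hif1a* where they ranked below those 3, were named after their values were seen. Of 107 genes on the other lists 102 were measured. Promoter sequences came from RefSeq (GRCm38.p6), and no protein sequence was used. The alternatives were no intensity trend, array weights, quantile normalization, median centring, only probe sets above the median signal, the mean of all probe sets, only the arrays compared, the *Actb* covariate, a replicate block, a fold minimum dropped or tested directly (limma treat), and each array left out. Leaving out the 3 *c*35 arrays with high *Cyp1a1* was chosen after seeing the data. Figures were drawn with matplotlib 3.10.9.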

Additional observations from a re-analysis of the deposited data

Results flagged for a closer look

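Ligand responses of 3 members differed between the lines by a test of the difference itself, *c*35 minus wild-type cells, adjusted in limma over all probe sets. With BaP the difference was 0.65 for *Vegfc*, 0.90 for *Angpt1* and -0.74 for *S1pr1*. With TCDD it was 0.54 for *Vegfc*, whose adjusted p of 0.0246 passed while its size stayed below 1.5-fold. The *S1pr1* call was lost in 11 of the fits that left out 1 array, and its *c*35 signals lay near the median of all probe sets, which limits the size of its difference. The fit without the 3 *c*35 arrays of high *Cyp1a1* keeps 1 *c*35 DMSO array, so it cannot tell whether these calls hold.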

How the results depend on the processing

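No member reversed its direction in a called comparison under any alternative. The number of members called with TCDD against DMSO in wild-type cells was 0 with the mean of all probe sets, 0 in the test against 1.5-fold and 0 with the *Actb* covariate, and 0 to 1 with each array left out. With BaP it was 0 in the test against 1.5-fold, and TCDD against BaP gave 1 with no minimum change (*Vegfa*). Between the lines with TCDD the test against 1.5-fold called 4 members (*Angpt1*, *Fgf1*, *Pdgfb* and *S1pr1*) in place of 7, and leaving out each array gave 6 to 7, beside 5 to 6 with BaP and 6 in every case with DMSO. Under the other alternatives these counts were 4 to 9 with TCDD, 4 to 9 with BaP and 5 to 9 with DMSO. The difference in TCDD response gave 1 with no minimum change (*Vegfc*) and 0 to 1 with each array left out, where *Vegfc* was gained without wild-type TCDD replicate 1, *c*35 TCDD replicate 2 or *c*35 DMSO replicate 1 and *Angpt1* without *c*35 DMSO replicate 3. The difference in BaP response gave 0 in the test against 1.5-fold and 2 to 3 with each array left out. Its fit without the 3 *c*35 arrays of high *Cyp1a1* keeps 1 *c*35 DMSO array and cannot tell whether the calls hold. Single values of the members kept their status, called or not called, in 2884 of 2950 refits. A call was lost in 47 and gained in 19. Most of the unchanged values were not called in either fit. With the replicate number as a block the counts were unchanged, at 1 with TCDD, 2 with BaP and 0 for TCDD against BaP in wild-type cells, 0 with either ligand in *c*35 cells, 7, 6 and 6 between the lines with TCDD, BaP and DMSO, and 0 and 3 for the differences in TCDD and BaP response. Arrays with the same number correlated in their deviations at -0.26 to 0.22, and arrays with different numbers at -0.21 to 0.21. These ranges do not settle whether arrays of the same number belong together. *Pgf* dropped out of the fit of probe sets above the median signal. Quantile normalization and median centring moved the median difference over all probe sets by less than 0.1 in each comparison. RMA signals near or below the median limit *Pgf* and the second probe sets of *Angpt1* and *Angpt2*. Such signals also limit the size of the line differences of *S1pr1*, *Fgf1*, *Pdgfra* and *Ptprb*, whose *c*35 signals lie there.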
